A study of Homo sapiens with 15 samples.

Results

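The regions described here are 100 kb bins of the human genome in which the ovarian cancer lines PEO1 and PEO4 differed by a log2 ratio of at least 1 in sequencing coverage before any drug was given. Both lines derive from 1 case of high-grade serous ovarian cancer (HGSOC): PEO1 is the platinum-sensitive line of the pair and PEO4 the resistant one. Pt-exo-seq was run on untreated PEO1, untreated PEO4, PEO1 given 16 µM cisplatin, PEO4 given 16 µM cisplatin and PEO4 given 32 µM cisplatin. Each of the 5 groups had 3 libraries. The labels name no other treatment and no introduced genetic change, and they do not describe the genomes of the lines. The 16 µM dose in PEO1 and the 32 µM dose in PEO4 were chosen in the study to give a similar total adduct load. Each line is 1 cell line grown in culture, and the labels do not say whether libraries came from separate cultures, so the p-values measure only the spread between these libraries.

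Bins were chosen by their values in the 6 untreated libraries. Reads in 1 kb windows were summed into 100 kb bins on chromosomes 1 to 20 and 22, scaled by the library's total reads to CPM, the usual depth-normalised read count, and a bin was kept if the log2 ratio of mean CPM in untreated PEO4 over untreated PEO1 was at least 1 in either direction. Of 26361 bins that passed a mean count of at least 50, 1096 (4.16%) met this rule, and chromosomes 1 to 22 and X together had 30376 bins before that minimum. Coverage was higher in untreated PEO4 in 550 bins (2.09%) and lower in 546 bins (2.07%). These untreated differences selected the bins and are given below as a description, with no test. With the TMM factors of edgeR in place of library totals, 697 bins would be higher and 451 lower, and 1001 of the 1096 remained.

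Cisplatin reacts with the N7 position of purines and most often links neighbouring guanines on 1 DNA strand. In Pt-exo-seq, sonicated DNA is digested by exonucleases that stop at such a platinum adduct, so a read begins close to the lesion, and an untreated library shows where reads fall when no adduct is present. In sequencing of sonicated DNA, the number of reads in a large bin also follows how many copies of that DNA the cells hold, how well reads map there and its base composition. HGSOC genomes are known for many gains and losses of long chromosome segments. No library of plain input DNA and no copy-number measurement was used here, so the number of DNA copies in each line and any other difference between the lines cannot be told apart in the values below.

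Base composition differed between the 2 directions, and 4 stretches of 200 bases show the range. The GC content of a bin was 47.0% in the median bin higher in PEO4, 38.9% in the median bin lower in PEO4 and 39.9% in the median of all 26361 bins. The sequences below are the plus strand of GRCh37 (hg19) near the middle of 4 member bins, moved off annotated exons, with each GG or CC pair in capitals because a pair of neighbouring guanines on either strand is the usual cisplatin target. They come from the bin with the largest difference upwards, at chr17:72248901-72249100 in an intron of TTYH2, from the bin with the largest difference downwards, at chr4:75349901-75350100 between genes, from the most GC-rich bin higher in PEO4, at chr1:2448901-2449100 in an intron of PANK4, and from the most GC-poor bin lower in PEO4, at chr15:21885901-21886100 between genes.
chr17:72248901-72249100: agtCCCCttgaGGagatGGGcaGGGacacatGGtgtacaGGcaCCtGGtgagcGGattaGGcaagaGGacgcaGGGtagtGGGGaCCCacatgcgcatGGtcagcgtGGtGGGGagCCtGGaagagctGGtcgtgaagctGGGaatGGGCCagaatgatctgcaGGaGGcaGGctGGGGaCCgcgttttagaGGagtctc
chr4:75349901-75350100: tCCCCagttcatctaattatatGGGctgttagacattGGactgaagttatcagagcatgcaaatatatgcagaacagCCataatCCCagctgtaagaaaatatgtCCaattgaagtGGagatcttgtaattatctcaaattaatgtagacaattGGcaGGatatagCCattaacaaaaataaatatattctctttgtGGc
chr1:2448901-2449100: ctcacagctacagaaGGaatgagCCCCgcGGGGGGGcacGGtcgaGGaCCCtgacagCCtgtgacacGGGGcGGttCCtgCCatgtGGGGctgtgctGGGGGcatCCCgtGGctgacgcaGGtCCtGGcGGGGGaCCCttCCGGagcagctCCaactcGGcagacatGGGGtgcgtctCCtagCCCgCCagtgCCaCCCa
chr15:21885901-21886100: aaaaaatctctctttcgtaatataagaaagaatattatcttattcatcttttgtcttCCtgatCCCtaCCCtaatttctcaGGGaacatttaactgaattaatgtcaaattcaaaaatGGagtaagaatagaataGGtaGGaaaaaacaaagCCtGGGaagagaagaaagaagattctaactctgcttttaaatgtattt

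The GC-rich stretches on chromosomes 17 and 1 held 43 and 54 GG or CC pairs in 200 bases, against 15 on chromosome 4 and 13 on chromosome 15. Over whole bins GG or CC made up 13.6% of neighbouring base pairs in the median bin higher in PEO4 and 9.32% in the median bin lower in PEO4. The median of all 26361 bins was 9.82%. The chromosome 17 bin (chr17:72200001-72300000) had 12.6, 18.0 and 16.4 CPM in untreated PEO1 and 74.8, 67.7 and 79.1 CPM in untreated PEO4, a log2 difference of 2.24. After 16 µM cisplatin it had 25.2, 15.5 and 19.2 CPM in PEO1 and 41.8, 68.5 and 63.6 CPM in PEO4, and after 32 µM 71.3, 49.1 and 54.2 CPM in PEO4. No PEO4 library came as low as any PEO1 library, and edgeR gave a log2 difference of 1.56 at 16 µM (adjusted p = 9.14e-05). The chromosome 4 bin (chr4:75300001-75400000) lay at 49.9, 51.1 and 54.4 CPM in untreated PEO1 and 13.1, 12.4 and 14.9 CPM in untreated PEO4. Its treated libraries held 44.1, 47.0 and 45.2 CPM in PEO1, 17.5, 12.7 and 14.2 CPM in PEO4 at 16 µM and 13.2, 13.6 and 15.2 CPM at 32 µM, a log2 difference of -1.6 (adjusted p = 9.22e-06) and -1.68 (adjusted p = 8.83e-06). Again the lines did not overlap.

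The GC-richest bin behaved differently from these. At chr1:2400001-2500000, which holds 63.5% GC, untreated PEO1 had 17.4, 21.2 and 19.9 CPM and untreated PEO4 45.6, 33.6 and 46.2 CPM. After treatment PEO1 had 46.5, 22.1 and 27.2 CPM, PEO4 25.9, 35.3 and 36.6 CPM at 16 µM and 49.6, 29.6 and 39.6 CPM at 32 µM. The lines overlapped, and the log2 difference was 0.05 at 16 µM (adjusted p = 0.983) and 0.33 at 32 µM (adjusted p = 0.558). The chromosome 15 bin (chr15:21800001-21900000) is poorly covered, with 1.14 to 3.96 CPM in the untreated and 0.754 to 3.23 CPM in the treated libraries. Its log2 difference of -1.14 in untreated cells became -0.61 at 16 µM (adjusted p = 0.216) and -1.25 at 32 µM (adjusted p = 0.00823).

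Libraries held 27705392 to 56643611 reads in the windows. The slope of log2 CPM on GC content, fitted over all tested bins of a library, differed within groups. Among the treated libraries it was 0.402 per 10 points of GC in PEO1 16 µM replicate 1 against -0.040 and -0.038 in the other two, -0.157 in PEO4 16 µM replicate 1 against 0.318 and 0.253, and 0.334 in PEO4 32 µM replicate 1 against -0.132 and -0.034. Replicate 1 therefore stood apart in each treated group, and results that rest on it are given with and without it. Among the untreated libraries, which chose the bins, PEO1 replicate 1 also stood apart, at -0.173 against 0.121 and 0.071. Without it, 914 of the 1096 members remained. Untreated PEO4 slopes ran from 0.195 to 0.378, so that GC-rich bins had relatively more reads in untreated PEO4. When a GC trend was divided out of each library, 495 bins were higher and 521 lower by the rule, and 673 of the 1096 were among them.

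Members fell on 13 of the 21 chromosomes. Chromosome 20 had the largest share, 29.1% of its bins (7 higher, 167 lower), followed by chromosome 6 with 14.3% (240, all higher), chromosome 17 with 13.5% (105, all higher), chromosome 22 with 13.5% (47, all lower) and chromosome 4 with 9.55% (18 higher, 161 lower). None lay on chromosomes 7, 10, 11, 13, 14, 16, 18 or 19. Joining adjacent bins of the same direction gave 318 regions, of which 168 were single bins (122 higher, 46 lower) and 150 held at least 2 bins. Most regions were pieces of longer stretches cut by the threshold: with members of the same direction at most 1 Mb apart joined, there were 54 stretches (40 higher, 14 lower), and the 24 with at least 5 bins held 1041 members. All 655 tested bins lying between the members of a stretch differed in the same direction in untreated cells, whose values also chose the members. In the treated libraries at 16 µM, 619 of the 655 differed in that direction (edgeR quasi-likelihood test, adjusted p under 0.05). Of all tested bins, 12.1% were higher and 10.1% lower in PEO4 by that test. The threshold itself cut through a continuum, the 3 members nearest to it having log2 differences of 1.0005, 1.0007 and 1.0009 (on chromosomes 9, 6 and 6) and the 3 nearest other bins -0.9999, 0.9999 and -0.9998 (on chromosomes 20, 4 and 20).

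**Figure D1:**
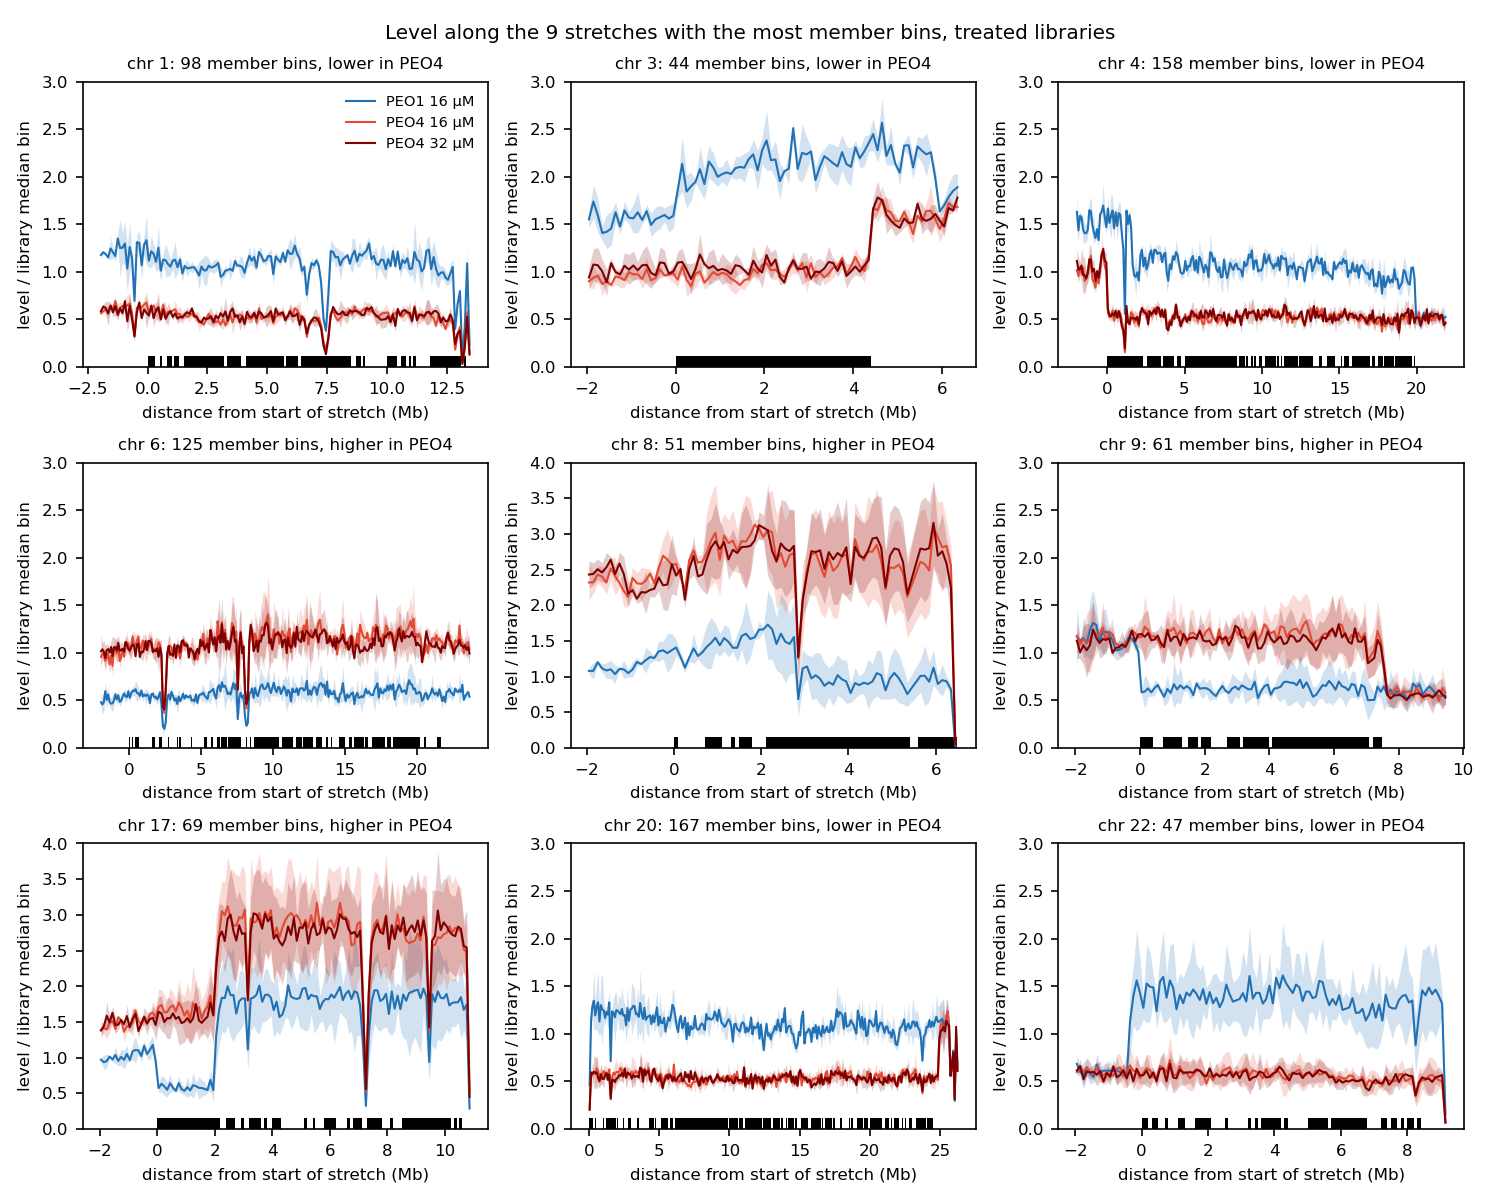
Level of each 100 kb bin divided by the median bin of its library (y axis), against distance in Mb from the start of the stretch (x axis), for the 9 stretches with the most members in the 9 treated libraries. Lines are means of 3 libraries, shading is 1 SD, and black marks on the x axis are member bins; the lines run apart inside each stretch, and on chromosome 9 meet again on both sides, near 1.1 before it and 0.6 after it.

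The 9 treated libraries took no part in choosing the bins, and they were used to ask whether the difference between the lines was also present under cisplatin. At 16 µM in both lines, 499 of 550 bins higher in untreated PEO4 were also higher in treated PEO4 (edgeR quasi-likelihood test, Benjamini-Hochberg adjusted p under 0.05 over 28190 bins), where 12.1% of all bins were called higher. Of the 546 lower bins, 544 were called lower, against 10.1% of all bins. All 1096 had the same sign as in untreated cells. With PEO4 at 32 µM the counts were 500 of 550 higher, against 12.0% of all bins, and 544 of 546 lower, against 10.0%. The 2 comparisons share the PEO1 libraries and are not independent of each other. Without PEO1 16 µM replicate 1, 545 higher members were called at 16 µM and 549 at 32 µM, and without replicate 1 of every treated group 550 and 549; these last fits, with 2 libraries a group, were added after the data were seen.

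The sizes before and after treatment are given side by side with no test, since the untreated values chose the bins. The median log2 difference of the lower members was -1.13 in untreated cells, -1.04 at 16 µM and -1.02 at 32 µM. For the higher members it was 1.12, 0.97 and 0.93, and without replicate 1 of every treated group 1.13 at 16 µM and 0.93 at 32 µM, while the median of all tested bins was -0.01 in both treated comparisons. All 6 treated PEO4 libraries lay above all 3 treated PEO1 libraries in 460 of the 550 higher members, against 12.3% of all tested bins. They lay below in 545 of the 546 lower members, against 11.4%. The 1 member with another sign at 32 µM, chr4:9200001-9300000, was thinly covered, with a mean count of 153 reads, and had 5.57, 3.39 and 2.85 CPM in treated PEO1 and 2.54, 2.85 and 4.81 CPM in PEO4 at 32 µM (adjusted p = 0.872); it holds copies of the USP17L gene family, whose near-identical sequences share reads.

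**Figure D2:**
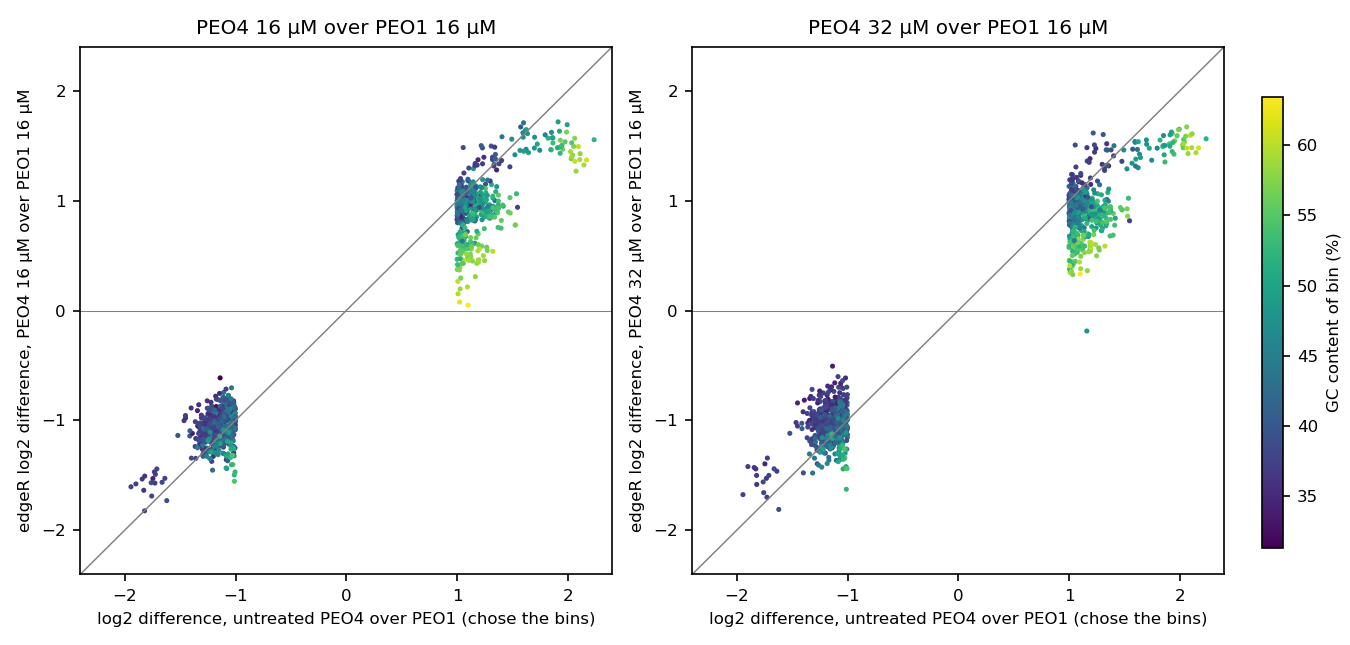
Log2 difference PEO4 over PEO1 in untreated cells (x axis, the values that chose the bins) against the edgeR log2 difference in treated cells (y axis), 1 point for each of the 1096 bins, coloured by GC content, with the line of equality. Lower members lie along the line, and the GC-rich higher members lie below it, down to 0.05 at 16 µM.

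The difference was spread through the bins and did not sit in a few windows. Among 10 kb pieces of higher members with a mean of at least 10 reads, 99.7% had more CPM in PEO4 at 16 µM than in PEO1, against 48.5% of pieces outside members. For the lower members 99.9% of the pieces had less in PEO4, against 51.5% outside. Single 1 kb windows with a mean of at least 5 reads moved the same way in 86.5% and 87.6%, against 50.4% and 49.6% of windows outside members. The fullest window of a bin held 1.94% of its reads in the median higher member and 1.99% in the median lower member, against 2.02% in all bins. That share is of the reads of all libraries together and does not measure the difference between the lines.

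No member was called between the 2 doses in PEO4. Of 1096 bins, 0 passed at 32 µM against 16 µM (0.0% of all 28190 bins by edgeR, and 0 by DESeq2), 26 (2.37%) had an unadjusted p under 0.05 by edgeR against 486 (1.72%) of all bins, and 31 by DESeq2 against 581, and 90% of the members' log2 differences lay between -0.18 and 0.20. This count rested on the replicates numbered 1. Without them, in the fit added after the data were seen, 362 members (73 higher, 289 lower at 32 µM) and 6259 of all bins were called, while leaving out any single treated library gave 0. In the GC slope, PEO4 16 µM replicate 1 was nearer to the other 32 µM libraries and PEO4 32 µM replicate 1 nearer to the other 16 µM libraries than either was to its own group. Groups were kept as labelled; whether the labels of these 2 libraries were exchanged, or the part of this in the dose result, was not tested, and the count of 0 holds only for the groups as labelled.

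Among stretches, the largest log2 difference in untreated cells was at the end of the long arm of chromosome 8. The stretch chr8:139900001-146364022 held 51 members, all higher in PEO4, with a log2 difference of 1.67 in untreated cells. It covers TRAPPC9, AGO2 (a core protein of RNA interference), PTK2 (focal adhesion kinase), SCRIB (a cell polarity protein), PLEC and HSF1 (the heat shock transcription factor). Its longest region, chr8:142000001-145300000 with 33 bins, had 26.5, 33.7 and 36.3 CPM per bin in untreated PEO1 and 116, 101 and 114 CPM in untreated PEO4. After treatment it had 50.1, 33.4 and 34.1 CPM in PEO1, 71.9, 106 and 102 CPM in PEO4 at 16 µM and 115, 84.0 and 90.6 CPM at 32 µM. PEO1 replicate 1 and PEO4 16 µM replicate 1 came nearest to each other and still did not overlap in the region mean. Bin by bin, all treated PEO4 libraries lay above all treated PEO1 libraries in 30 of the 33 bins. All 33 bins were called at both doses (mean log2 differences 1.30 and 1.35, largest adjusted p 0.0255 and 0.00976). Against the median bin of the same library its treated level was 1.07 ± 0.302 in PEO1 and 2.57 ± 0.58 in PEO4 at 16 µM (SD, n = 3 libraries each).

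The second region there, chr8:145500001-146364022, reaches the chromosome end and had the largest log2 difference of all regions of more than 1 bin, 1.91. It had 23.1, 27.3 and 29.4 CPM in untreated PEO1 and 103, 93.5 and 103 CPM in untreated PEO4. Under treatment PEO1 had 37.3, 29.3 and 27.7 CPM, and PEO4 had 71.1, 100 and 95.7 CPM at 16 µM and 105, 77.1 and 84.3 CPM at 32 µM. All 9 bins were called at each dose, with mean log2 differences of 1.54 and 1.5 and no overlap between the lines. Nearer the centromere, 13 members lay between chr8:62900001 and 66400000, among them bins with YTHDF3 and CYP7B1. Their log2 difference was 1.06 in untreated cells, 1.05 at 16 µM and 1.11 at 32 µM, and all 13 were called.

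On chromosome 17 the boundaries could be read from the level of each line. The region chr17:70300001-72500000 (22 bins, 16 protein-coding genes, among them SSTR2, a somatostatin receptor, and SDK2) had 20.9, 24.6 and 24 CPM in untreated PEO1 and 72.4, 66.7 and 72.4 CPM in untreated PEO4. Treated PEO1 had 28.6, 22.5 and 22.4 CPM, and PEO4 had 52.9, 71 and 68.2 CPM at 16 µM and 70.3, 54.4 and 56.7 CPM at 32 µM. All 22 bins were called at both doses (mean log2 differences 1.46 and 1.38, largest adjusted p 0.00872 and 0.0134). The region means did not overlap between the lines, and bin by bin the treated libraries did not overlap in 21 of the 22. In PEO1 the level went from 1.09 ± 0.02 times the library median, in 5 bins 0.2 to 0.7 Mb before the region, to 0.58 ± 0.08 in its first bins and to 1.83 ± 0.50 after it (SD, n = 3). PEO4 at 16 µM stood at 1.52 ± 0.02 before it, 1.67 ± 0.19 inside and 2.95 ± 0.68 after it. At the start of the region it was thus PEO1 that changed level. At its end both lines stood higher after it than in its last bins, which were at 0.58 ± 0.10 in PEO1 and 1.68 ± 0.34 in PEO4. With the bins within 1 Mb on both sides pooled, the region's reads per window were 0.51 times theirs in PEO1 and 0.87 times in PEO4.

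The rest of that stretch, up to chr17:80900000, brought its members to 69, with median GC of 53.2% over all of them. Of the 69, 48 were called at 16 µM and 47 at 32 µM. A separate stretch, chr17:54100001-58400000, held 33 members, and all 33 were called. It had a log2 difference of 1.12 in untreated cells, 1.04 at 16 µM and 0.97 at 32 µM. It contains RAD51C (a gene of homologous recombination), CLTC (clathrin heavy chain), SRSF1 (a splicing factor) and VMP1. RAD51C averaged 19.6 CPM over its 2 bins in untreated PEO1 and 45.7 CPM in untreated PEO4, and 21.9, 44.4 and 42.4 CPM in PEO1 16 µM, PEO4 16 µM and PEO4 32 µM. Both of its bins were called at either dose.

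Chromosome 9 showed a difference with an edge on each side. The stretch chr9:126000001-133500000 held 61 members, with HSPA5 (an endoplasmic reticulum chaperone), CDK9 (a transcription elongation kinase), ENG, LCN2 and ASS1 (argininosuccinate synthase). Treated PEO1 stood at 1.10 ± 0.03 times the library median before it, 0.62 ± 0.03 in its first bins and 0.58 ± 0.10 after it, and PEO4 at 16 µM at 1.13 ± 0.04, 1.16 ± 0.06 and 0.60 ± 0.12 (SD, n = 3). PEO1 changed level at the start of the stretch and PEO4 at its end. Its longest region, chr9:130100001-133100000 (30 bins), had 17.9, 23 and 22.4 CPM in untreated PEO1 and 50.7, 46.1 and 52.0 CPM in untreated PEO4. With treatment these were 29.0, 20.6 and 21 CPM in PEO1, 33.2, 49.2 and 48.3 CPM in PEO4 at 16 µM and 49.5, 36.5 and 39.4 CPM at 32 µM, with no overlap. All 30 bins were called at 16 µM and 28 at 32 µM (mean log2 differences 0.91 and 0.85). Bin by bin, the treated libraries of the 2 lines did not overlap in 24 of the 30. In the region of 3 bins at its end, chr9:133200001-133500000, untreated PEO1 had 16.1, 20.4 and 18.7 CPM and untreated PEO4 48.8, 43.7 and 48.7 CPM. Treated PEO1 had 23.6, 20.8 and 19.7 CPM there, and PEO4 had 31.0, 47.0 and 45.0 CPM at 16 µM and 45.9, 34.4 and 35.2 CPM at 32 µM. The lines did not overlap, and all 3 bins were called at both doses.

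**Figure D3:**
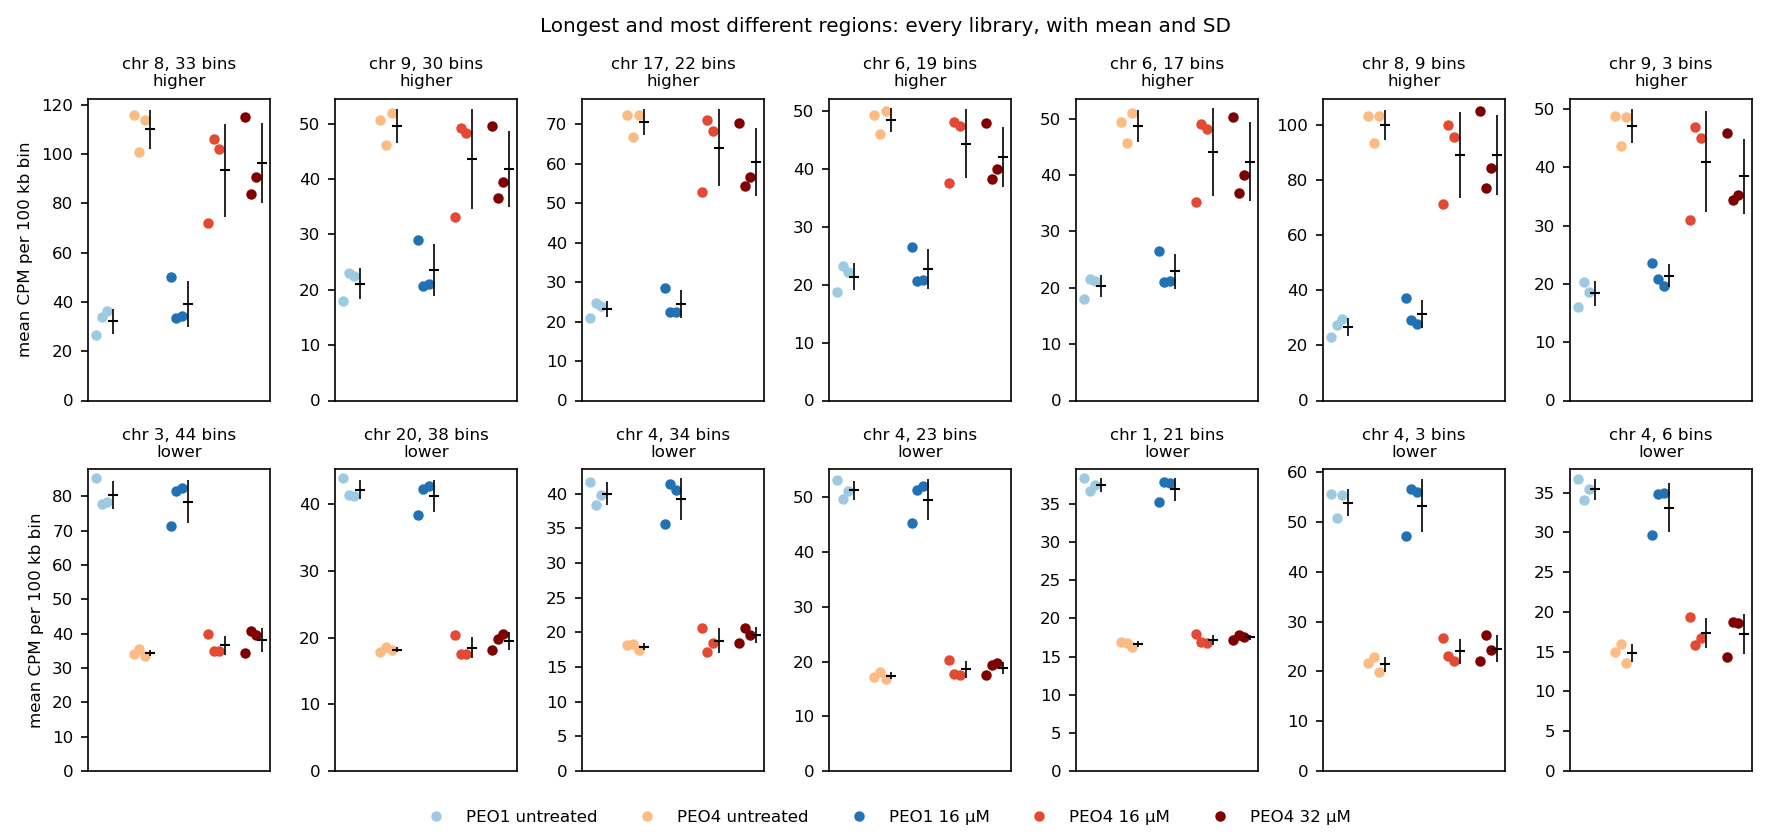
Mean CPM per 100 kb bin (y axis, from 0) in every library for 7 regions higher and 7 lower in PEO4, of 3 or more bins, from those with the most bins or the largest difference. Each point is 1 library in replicate order 1 to 3, and black bars show the mean and SD of each group; in all 14 regions the PEO1 and PEO4 libraries do not overlap, for example 71.4 to 82.5 CPM against 34.3 to 40.8 CPM in the treated libraries of the 44 bins on chromosome 3.

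Chromosome 6 carried 240 members, all higher in PEO4, in 16 stretches between chr6:400001 and 81700000. Of the 782 tested bins over that span, 780 were higher in untreated PEO4 and 779 were called higher at 16 µM, with a median log2 difference of 0.92 in untreated cells and 0.97 at each dose, so the members there were the upper part of a difference that ran over the short arm and into the long arm. The largest stretch, chr6:24400001-46100000 with 125 members, includes the histone gene clusters and much of the HLA region, and all 125 were called at both doses. HLA-DRB1, an antigen-presenting gene that varies in sequence between people, lay in a bin with 7.23 CPM in untreated PEO1 and 14.9 CPM in untreated PEO4. FANCE (a subunit of the Fanconi anaemia core complex, which acts on DNA crosslinks) lay at 20.8 CPM in untreated PEO1 and 46.8 CPM in untreated PEO4, and at 22.4, 44.1 and 42.5 CPM in PEO1 16 µM, PEO4 16 µM and PEO4 32 µM. POLH (the polymerase that copies past platinum adducts) lay at 20.8 and 45.6 CPM untreated and 22.3, 42.8 and 42.3 CPM treated. The bins of both genes were called at either dose. These values are reads from the genes' DNA and say nothing of their expression.

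The longest regions on chromosome 6 were chr6:42700001-44600000 (19 bins) and chr6:33100001-34800000 (17 bins). The first had 18.7, 23.2 and 22.3 CPM in untreated PEO1 against 49.4, 46.1 and 50 CPM in untreated PEO4, and in treated libraries 26.6, 20.6 and 20.8 CPM in PEO1, 37.6, 48.2 and 47.5 CPM in PEO4 at 16 µM and 48.0, 38.3 and 40.0 CPM at 32 µM. The second had 18.1, 21.5 and 21.3 CPM against 49.5, 45.7 and 51.1 CPM untreated, and 26.5, 21 and 21.2 CPM in PEO1, 35.2, 49.0 and 48.2 CPM and 50.3, 36.8 and 40.1 CPM in PEO4 treated. Neither overlapped between the lines, and every bin of both was called. Next to the centromere, chr6:55700001-58800000 (24 members, with BMP5, COL21A1 and DST) had a larger difference after treatment than before, 1.35 at 16 µM and 1.39 at 32 µM against 1.25 untreated, with no test of that change. The single bin chr6:62100001-62200000, across the centromere, had few reads, with 1.58, 3.45 and 2.57 CPM in untreated PEO1, 8.22, 6.69 and 7.27 CPM in untreated PEO4, 3.48, 3.95 and 4.63 CPM in treated PEO1, and 7.26, 8.14 and 7.52 then 5.49, 6.06 and 9.44 CPM in PEO4 at 16 and 32 µM. Its level was 0.23 times that of its surroundings in treated PEO1 and in PEO4 at 16 µM, so the bin was low in both lines.

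Chromosome 5 held 31 members between chr5:130900001 and 138100000, with IL4 (a cytokine), IRF1 and TCF7 (transcription factors), CDC25C (a cell cycle phosphatase) and CTNNA1 (alpha-catenin). All 72 tested bins of that span were higher in untreated PEO4 and all 72 were called at 16 µM, with a median log2 difference of 0.98 untreated and 0.96 at 16 µM. The 10 bins before the span had a mean log2 difference of 0.13 and the 10 after it 0.11 at 16 µM. Like chromosome 9, it was a difference bounded on both sides.

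Bins lower in PEO4 formed longer runs. The longest of all regions, chr3:165300001-169700000 with 44 bins, holds the 3q26 gene MECOM, a transcription factor gene often gained in HGSOC, together with BCHE and SEC62. Untreated PEO1 had 85.3, 77.9 and 78.4 CPM per bin and untreated PEO4 34, 35.5 and 33.6 CPM. Treated PEO1 had 71.4, 81.7 and 82.5 CPM, and PEO4 had 39.8, 34.9 and 34.9 CPM at 16 µM and 34.3, 40.8 and 39.6 CPM at 32 µM. The lines were far apart, and all 44 bins were called at each dose (mean log2 differences -1.09 and -1.02, largest adjusted p 0.000111 and 0.000805). Treated PEO1 stood at 2.13 ± 0.090 and PEO4 at 16 µM at 1.00 ± 0.05 times the median bin. Beyond its end PEO4 stood at 1.62 ± 0.06 and PEO1 at 2.26 ± 0.125 (SD, n = 3), so the region ended where PEO4 changed level.

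On chromosome 4 the run was longer, with 158 members over chr4:74300001-94200000 and 3 more at chr4:70800001-71100000. Its first region, chr4:74300001-76600000 (23 bins), holds the CXC chemokine cluster with CXCL8 and CXCL1 and the genes of the epidermal growth factor receptor ligands AREG, EREG and BTC, and had the largest difference of the lower regions. Untreated PEO1 had 53.2, 49.7 and 51.1 CPM and untreated PEO4 17.2, 18.1 and 16.9 CPM, a log2 difference of -1.56. Treated PEO1 had 45.3, 51.4 and 52.1 CPM, and PEO4 had 20.3, 17.8 and 17.5 CPM at 16 µM and 17.5, 19.3 and 19.7 CPM at 32 µM. The 2 lines did not overlap, and all 23 bins were called at both doses, with mean log2 differences of -1.40 and -1.36 (largest adjusted p 0.00173 and 0.00119). Here PEO4 departed from its surroundings, at 0.57 times the reads per window of the bins within 1 Mb against 0.96 times in PEO1. Before the stretch treated PEO1 stood at 1.54 ± 0.09 and PEO4 at 16 µM at 1.05 ± 0.04 times the library median, in its first bins at 1.56 ± 0.14 and 0.54 ± 0.05, in its last bins at 0.94 ± 0.09 and 0.51 ± 0.03, and after it at 0.51 ± 0.02 and 0.52 ± 0.04 (SD, n = 3). The lines already differed before the stretch, by a mean log2 of -0.60 in 10 bins at 16 µM; the difference grew where PEO4 changed level and ended where PEO1 came to the level of PEO4.

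Further along, chr4:79300001-82700000 (34 bins, with FGF5 and ANXA3) had 41.7, 38.4 and 39.8 CPM in untreated PEO1 and 18.2, 18.3 and 17.4 CPM in untreated PEO4. Treated libraries held 35.7, 41.4 and 40.6 CPM in PEO1, 20.7, 17.1 and 18.5 CPM in PEO4 at 16 µM and 18.4, 20.7 and 19.6 CPM at 32 µM, and all 34 bins were called at each dose. CCSER1, a very long gene of a common fragile site, lies in the last part of the stretch. In the 6 bins of chr4:92200001-92800000, at the 3′ end of CCSER1 and beyond it, untreated PEO1 had 36.7, 34 and 35.5 CPM and untreated PEO4 15, 15.9 and 13.6 CPM. Treated PEO1 had 29.6, 34.8 and 35 CPM there and PEO4 19.4, 15.8 and 16.7 CPM at 16 µM and 14.3, 18.7 and 18.6 CPM at 32 µM. Neither region overlapped between the lines, and all of their bins were called at both doses.

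The small region chr4:70800001-71100000, with the casein genes CSN1S1 and CSN2, stood alone between bins with a smaller difference. It had 55.6, 50.8 and 55.4 CPM in untreated PEO1, 21.6, 22.9 and 19.9 CPM in untreated PEO4, 47.2, 56.7 and 56.1 CPM in treated PEO1, and 26.8, 23.1 and 22 then 22, 27.4 and 24.3 CPM in PEO4 at 16 and 32 µM. All 3 bins were called, and the 10 bins before and after it had mean log2 differences of -0.49 and -0.60 at 16 µM. The single bin chr4:85300001-85400000 had 46.6, 44.7 and 42.3 CPM against 17.5, 17.9 and 18.8 CPM in untreated cells, and 37.8, 45.7 and 44.2 CPM in PEO1, 22.4, 23.1 and 19.1 CPM and 20.9, 22.2 and 20.2 CPM in PEO4 after treatment. It was called at both doses with no overlap.

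Chromosome 20 was lower in PEO4 from its first bin to chr20:24500000, where 167 of 245 tested bins were members and all 167 were called at both doses. Its genes include PCNA (the sliding clamp of DNA replication), MCM8 (a helicase of DNA repair), BMP2 and the fragile-site gene MACROD2. The region chr20:6100001-9900000 (38 bins, with BMP2, PLCB1 and PLCB4) had 43.9, 41.4 and 41.3 CPM in untreated PEO1 and 17.9, 18.6 and 18.1 CPM in untreated PEO4. Under cisplatin it had 38.4, 42.3 and 42.8 CPM in PEO1, 20.4, 17.6 and 17.6 CPM in PEO4 at 16 µM and 18.1, 19.8 and 20.6 CPM at 32 µM, with mean log2 differences of -1.14 and -1.06 (largest adjusted p 0.000192 and 0.000446). Against the library median this was 0.51 ± 0.03 in PEO4 at 16 µM. MACROD2 had 14 member bins among its 22, with 39.9 and 17.6 CPM in untreated PEO1 and PEO4 and 37.9, 19 and 19.4 CPM in PEO1 16 µM, PEO4 16 µM and PEO4 32 µM.

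The end of chromosome 1 was lower in PEO4 over 116 members from chr1:232000001 to 249100000, and all 171 tested bins of that span were lower before treatment and called lower at 16 µM. It includes EXO1 (an exonuclease of mismatch repair), FH (fumarate hydratase) and RYR2. The region chr1:242200001-244300000 (21 bins), with CEP170, is the fifth longest of the lower regions. Untreated PEO1 had 38.4, 36.7 and 37.5 CPM and untreated PEO4 16.9, 16.8 and 16.2 CPM. Treated PEO1 had 35.2, 37.9 and 37.7 CPM, and PEO4 had 18.0, 16.9 and 16.8 CPM at 16 µM and 17.2, 17.8 and 17.6 CPM at 32 µM. All 21 bins were called at both doses (mean log2 differences -1.09 and -1.08).

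Chromosome 22 differed from the other lower stretches in its base composition and in its change under treatment. The 47 members of chr22:42100001-50500000, with SREBF2 (a regulator of cholesterol synthesis), ATXN10, BRD1 and the drug-metabolising CYP2D6, had a median GC of 48.0%. Their log2 difference was -1.13 in untreated cells and -1.29 at each dose, and all 47 were called. Without replicate 1 of every treated group, the median of the 36 lower members of all chromosomes with over 46% GC went from -1.28 to -1.0 at 16 µM and from -1.28 to -1.26 at 32 µM. CYP2D6, whose copy number varies between people and which shares reads with CYP2D7, lay in 1 bin with 44.5 and 18.8 CPM in untreated PEO1 and PEO4 and 45.6, 19.8 and 18.4 CPM in PEO1 16 µM, PEO4 16 µM and PEO4 32 µM.

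**Figure D4:**
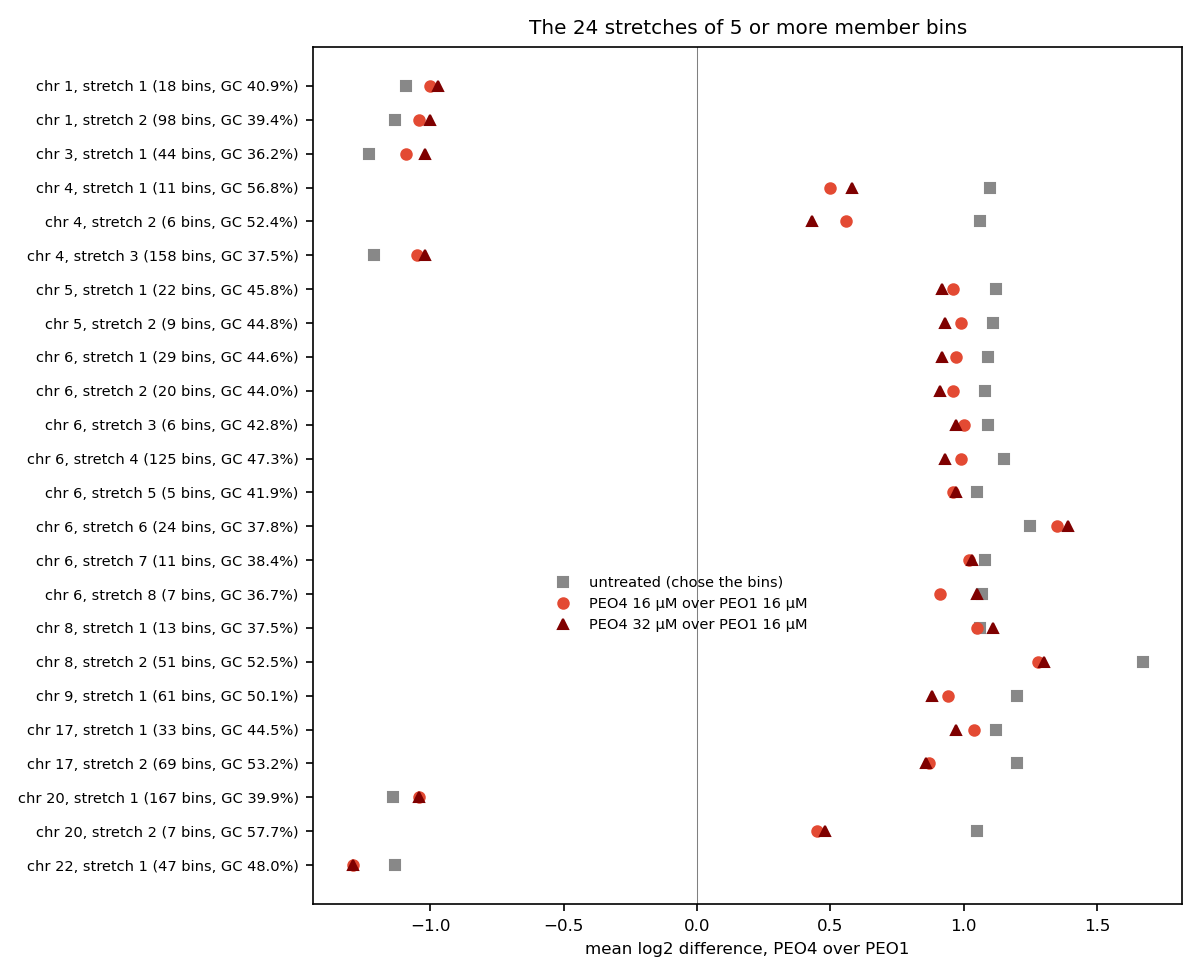
Log2 difference PEO4 over PEO1 (x axis) of the members in each of the 24 stretches of 5 or more members (y axis, with bins and median GC). Grey is the log2 ratio of mean CPM over the members in untreated cells. Red is the mean of the members' edgeR log2 differences in the 2 treated comparisons, so grey and red are not the same measure. Stretches with a median GC over 55%, on chromosomes 4 and 20, drop from about 1.1 to about 0.5. A chromosome 4 stretch of 6 members with a median GC of 52.4% also drops, from 1.06 to 0.56 at 16 µM and 0.43 at 32 µM. The lower stretches keep differences of about -1.0 to -1.3.

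Among the higher members, the gap between the untreated and the treated difference was widest in the GC-rich bins. Among 70 higher members with over 55% GC, the median log2 difference was 1.19 untreated, 0.56 at 16 µM and 0.61 at 32 µM, and 38 and 35 of them were not called. Among 242 higher members with at most 46% GC the medians were 1.07, 1.00 and 0.98, and all 242 were called at both doses. Across the 550 higher members, GC content and the change from the untreated to the treated log2 difference had a Pearson correlation of -0.791 at 16 µM, given as a description because bins share libraries and neighbours share a segment. Over all 26361 bins that correlation was -0.677, and bins over 55% GC had a median log2 difference of 0.50 untreated and -0.09 at 16 µM, so the shift was not particular to the members. Without replicate 1 of every treated group, the medians of the 70 bins were 1.02 and 0.72, and all 70 were called at both doses. The libraries left at 16 µM had GC slopes of 0.318 and 0.253 in PEO4 and -0.04 and -0.038 in PEO1. Line and library GC slope cannot be told apart in that 16 µM comparison. With a GC offset for each treated library, the medians were 0.56 and 0.56, and 67 and 68 were called.

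**Figure D5:**
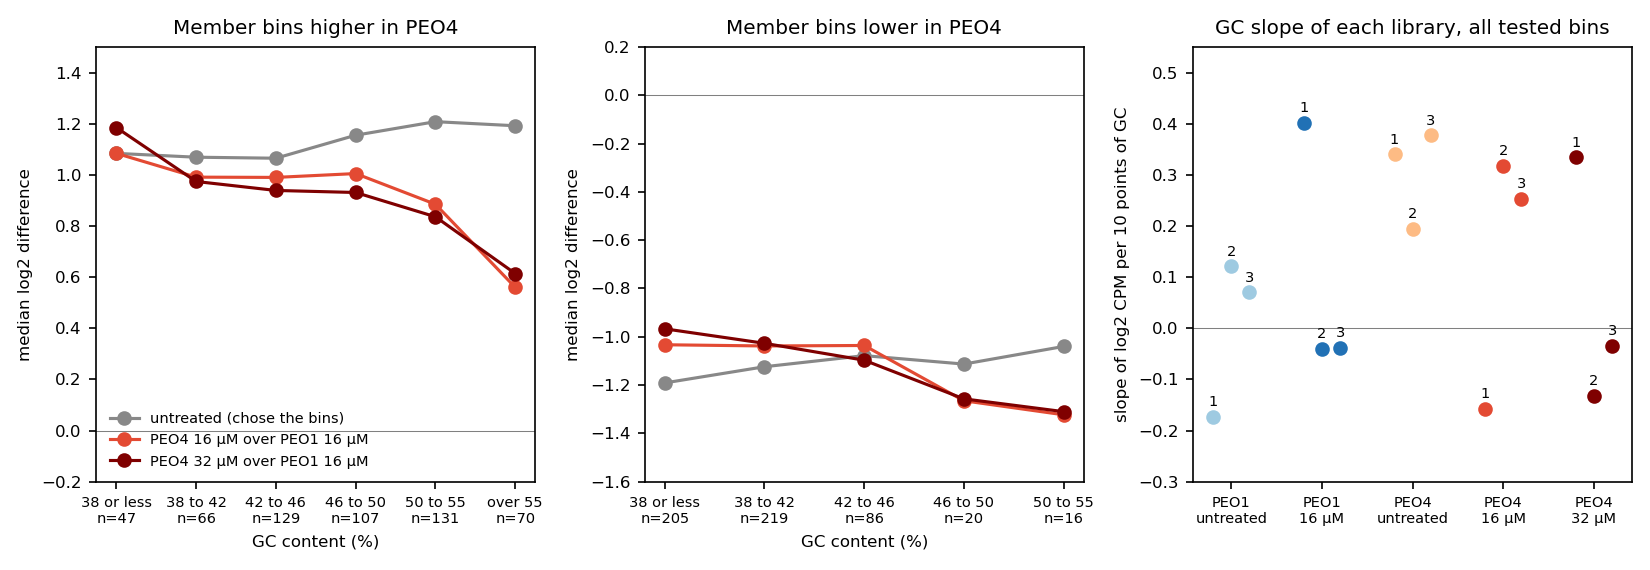
Median log2 difference PEO4 over PEO1 (y axis) of members by GC class (x axis, with the number of bins) for higher members on the left and lower members in the middle, untreated in grey and treated in red; on the right, the slope of log2 CPM per 10 points of GC in each library, labelled by replicate number. The grey and red lines lie farther apart toward high GC in the higher members, from 1.07 against 0.99 at 42 to 46% to 1.19 against 0.56 over 55% at 16 µM, and replicate 1 lies apart from replicates 2 and 3 in the 3 treated groups.

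GC-rich members were near chromosome ends in several small stretches. At the start of chromosome 4, 18 members between chr4:600001 and 9300000, with FGFR3 (a fibroblast growth factor receptor), NSD2 (a histone methyltransferase) and HTT, included 11 in chr4:600001-3900000 with a mean log2 difference of 0.50 at 16 µM and 0.58 at 32 µM against 1.10 untreated, 3 and 6 of them called. At the end of chromosome 20, 7 members in chr20:61000001-63000000, with CHRNA4 and the helicase gene RTEL1, went from 1.05 to 0.45 and 0.48, 2 of them called at each dose. The 5 members at the start of chromosome 1, between chr1:900001 and 3700000 with ISG15, SKI, PRDM16 and TP73, had differences of 1.02 to 1.04 untreated by stretch, and none was called in either comparison. In the 3 members of chr2:241300001-241900000, with GPC1, the log2 difference was 1.03 untreated and 0.40 and 0.44 treated, and none was called. Without replicate 1 of every treated group, as given above, all members of these stretches with over 55% GC were called. At 16 µM the PEO4 libraries left in that fit had higher GC slopes than the PEO1 libraries. Line and library GC slope cannot be told apart there.

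The other small stretches were as follows. On chromosome 2, 5 single bins between chr2:149000001 and 177000000, with MBD5, CACNB4, PKP4, DYNC1I2 and the HOXD cluster, had log2 differences of 1.01 to 1.07 untreated and 0.69 to 1.07 at 16 µM, and all 5 were called. On chromosome 3, 8 lower members in 5 stretches from chr3:158700001 to 193000000 outside the MECOM region were all called. On chromosome 12, chr12:200001-900000 with WNK1 (4 members, all called) was higher, and chr12:1800001-1900000 with ADIPOR2 was lower and called. On chromosome 17, chr17:43000001-43300000 with HEXIM1 (2 members) and chr17:62000001-62100000 with ICAM2 (1 member) were not called at either dose. The 2 poorly covered bins of chr15:21800001-22300000 were at 0.03 to 0.08 times the library median, and 1 of them was called, at 32 µM only.

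Of the single-bin regions, the 6 with the largest difference in each direction were examined. Higher in PEO4 were chr6:62100001-62200000 (log2 1.55), chr6:17700001-17800000 with NUP153 and KIF13A (1.27), chr17:75400001-75500000 with SEPTIN9 (1.27), chr4:600001-700000 with PDE6B and PCGF3 (1.22), chr6:7900001-8000000 with TXNDC5 (1.22) and chr6:79100001-79200000 (1.2). At 16 µM their log2 differences were 0.94, 0.93, 0.58, 0.59, 0.94 and 1.00, and all but the chromosome 4 bin (adjusted p = 0.0529) were called. In the SEPTIN9 and PDE6B bins, both with over 55% GC, the treated lines overlapped. Of those lower in PEO4, 5 are given: the chromosome 4 bin at 85.3 Mb described above (-1.30), chr3:162500001-162600000 (-1.25), chr1:249000001-249100000 (-1.18), chr4:83800001-83900000 with SEC31A (-1.17) and chr22:45500001-45600000 with NUP50 (-1.17). All 5 were called at both doses with no overlap, with log2 differences at 16 µM of -0.97, -1.14, -1.15, -1.01 and -1.24.

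Members overlapped 1362 of 18880 protein-coding genes in the annotation of the tested chromosomes (7.21%), 1008 in higher and 354 in lower bins. Of 36 genes that are recurrently gained in HGSOC, 1 overlapped a member (2.78%), MECOM, lower in PEO4 in all 6 of its bins at 80.6 against 35.1 CPM untreated. Of 30 genes recurrently lost, RAD51C was the 1 that did (3.33%), in the higher direction. Among 29 genes of common fragile sites, 5 overlapped (17.2%): CTNNA1 and PRIM2 were among the higher, and CCSER1 and MACROD2 among the lower. Genes of this kind are very long and touch more bins than most, and PRIM2 lies beside the centromere where near-identical copies share reads. Among 42 genes on the list for variable germline copy number, 3 did (7.14%): HLA-DRB1 higher, and SIRPB1 and CYP2D6 lower. None of 73 listed genes of segmentally duplicated families did. The USP17L genes in a chromosome 4 member, which have near-identical sequences, were not among those 73. Of 50 genes of platinum response, 2 did (4.0%), FANCE and POLH. These shares are counts with no test, and the lists were drawn up with earlier results of these data known.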

How the data were processed

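Pt-exo-seq was analysed in 15 libraries of PEO1 and PEO4 cells. According to the study's methods, the authors trimmed reads, aligned them to hg19 with Bowtie2, removed blacklisted regions and Picard duplicates, and deposited raw read counts in 1 kb windows stepped by 900 bp; tool versions are not given in the sources used here. Chromosome lengths equalled GRCh37, and genes came from GENCODE release 44 mapped to that build.

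Windows were summed by midpoint into 100 kb bins, and CPM used the total of all windows, 27705392 to 56643611 reads per library, and no interval for counting error is given. A window overlaps its neighbour by 100 bp, so a read there may count in 2 windows. The 9 treated libraries were fitted in edgeR 4.0.16 (R 4.3.3; quasi-likelihood test, TMM factors, Benjamini-Hochberg adjustment over 28190 bins of chromosomes 1 to 22 and X with a mean count of at least 50), and the fit was tested on simulated data. DESeq2 1.42.0 was an alternative, with others in scaling, filters, GC offset, bin size, threshold and libraries left out. Stretches join members of the same direction at most 10 bins apart. Level is the CPM of a bin over the median bin of its library. Unless a median is stated, the untreated log2 difference of a region or stretch is the log2 ratio of mean CPM over its members. The treated one is the mean of the edgeR log2 differences of its members.

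The members and gene lists were chosen with earlier results of these data known. Named regions were the 5 longest and the 5 with the largest difference in each direction, with values in every library, and the 6 largest single bins in each direction. The rule also asked for each of the 150 regions of 2 or more bins by position; these are given by stretch instead, a grouping made after the data were seen. A few genes and bins that the rule would name are not reported here.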

Additional observations from a re-analysis of the deposited data

How the results depend on the processing

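The 1096 members covered 109.6 Mb. The thresholds of 0.8 and 1.2 in place of 1 gave 246.1 and 33.4 Mb, and leaving out 1 untreated library gave 105.9 to 118.4 Mb, with 914 to 1022 of the members remaining. The other alternatives of bin size, count minimum, scaling and median gave 101.6 to 116.2 Mb; 673 of the 1096 remained with a GC trend divided out. Members called in their own direction numbered 1043 at 16 µM and 1044 at 32 µM in the fit reported, and 1004 to 1094 and 994 to 1094 when libraries were left out. All tested bins called numbered 6268 and 6216, and 5736 to 9908 and 5653 to 7337 without libraries. Between doses, members called ran from 0 to 362 and all bins called from 0 to 6259, the upper values without the 3 treated libraries numbered 1 and 0 in each fit that left out a single library. No result changed direction under these alternatives. Members called by DESeq2 numbered 1052 and 1057, and with a GC offset 1090 and 1092.

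Deviations from group means in same-numbered treated libraries correlated at -0.676 to 0.634 over 9 pairs, with a median of -0.341. Over 18 pairs with unlike numbers they correlated at -0.528 to 0.567, with a median of 0.283, so same-numbered libraries were not the more alike. With the replicate block 1030 and 1026 members were called (486 and 481 higher). Among the named regions, the single bins with SEPTIN9, with PDE6B and at chr6:62100001-62200000 changed their call under some alternatives, 26 values in all, and 6 levels against flanks moved by over 1 SD with flanks of 500 kb. Reads per bin were high (median count 1289 in higher and 999.8 in lower members), and 4 members had a mean count under 200.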

Other observations

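Chromosomes 21 and X stood outside the rule. On chromosome 21, 104 of 350 bins had a log2 ratio of at least 1 in untreated PEO4 over PEO1 and 0 of -1 or less, with a median log2 difference over all its bins of 0.92 untreated and 0.96 at both 16 µM and 32 µM. On chromosome X, 183 of 1479 bins had a log2 ratio of -1 or less and 0 of at least 1, with medians of -0.18, -0.10 and -0.07. No test was made on how these bins were chosen, since the same untreated values would have selected them.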
